A study of Homo sapiens with 4 samples.

Results

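The stretch of chromosome 12 from 70 to 110 Mb (GRCh38), on the long arm, holds 641 annotated genes, of which 180 are protein coding. Its members were the protein-coding genes that begin in the stretch and had a mean of 3 or more counts for each 1e6 counts assigned to genes (CPM) over the 4 libraries, which 117 genes reached. Of 11 genes left out by name (DUSP6, GALNT4, PLXNC1, NTN4, HSP90B1, TXNRD1, CHST11, ALDH1L2, MVK, LUM and DCN), 8 reached that level, so 109 members remained of 62649 genes in the files and 24961 genes tested. All 109 members passed the filter on low counts. The libraries came from A375, a human melanoma cell line with an activating BRAF mutation, grown with serum. The 2 control libraries are parental cells. The other 2 are cells adapted to vemurafenib, which blocks that mutant kinase, in weekly steps that doubled the concentration from 0.1 to 6.4 µM. All 4 share one line and medium. The labels do not say whether the resistant cells were 1 clone, or name a drug for any of the 4 libraries at harvest, although the protocol speaks of harvest after drug treatment. The series' design text calls replicates biological, without saying whether they were separate cultures, so p-values reflect the spread among the 4 libraries and part of it may be technical.

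The 109 genes have no common function. They include a growth factor gene of the melanocyte lineage (KITLG, the ligand of the receptor KIT), a caspase activator (APAF1), a clock repressor (CRY1), DNA glycosylases (UNG and TDG), and genes of vesicle traffic, RNA processing and mitochondria. What they share is position. Neighbouring genes share DNA copy number and chromatin surroundings, and RNA of unrelated neighbours can differ together between cell lines. RNA counts by themselves measure neither.

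Total assigned counts ranged from 68022689 to 87178097 per library, and the lowest count of any member in any library was 173. Control replicate 1 held even counts only (0 odd values). Of 9 melanoma and neural crest markers, 7 had 1 CPM or more, and the summed level ranged from 1014 to 1602 CPM over the libraries, most of it SOX10 and ERBB3. MIA, S100A1, PMEL and MLANA were only just over 1 CPM, with means from 1.41 to 1.53 CPM. Pigment genes TYR and DCT were under 1 CPM. All 4 fibroblast markers had 1 CPM or more, and they summed to between 9.28 and 12.7 CPM. Leukocyte markers summed to 1.58 CPM or less and endothelial markers to 3.43 CPM or less. Keratinocyte markers summed to 48.7 and 62.4 CPM in controls and 61.1 and 86.9 CPM in resistant cells, most of it KRT10, while KRT1 and DSG3 were at 0 counts in some libraries and KRT14 fell (edgeR adjusted p = 0.0355, 1.60 and 2.06 CPM in controls against 0.323 and 0.305). The part of these markers in the results was not tested.

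Members were mildly lower in resistant cells. The log2 fold change, resistant over control, was negative for 88 of 109 members (80.7%) and had a median of -0.28, a 1.21-fold lower level, with quartiles at -0.45 and -0.05. Among 11502 protein-coding genes of the same CPM minimum outside the stretch, 51% were negative and the median was -0.01, with quartiles at -0.22 and 0.19. The distribution was shifted rather than widened, since the distance between quartiles was 0.41 in both sets. Both resistant libraries lay below both controls in 55 members and above both in 7. Outside the stretch those shares were 24.1% and 23.4%, and over all tested genes 22.2% and 22.4%. The stretch was drawn because fold changes of these same genes were known to be low, so these values describe it and carry no test.

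**Figure D1:**
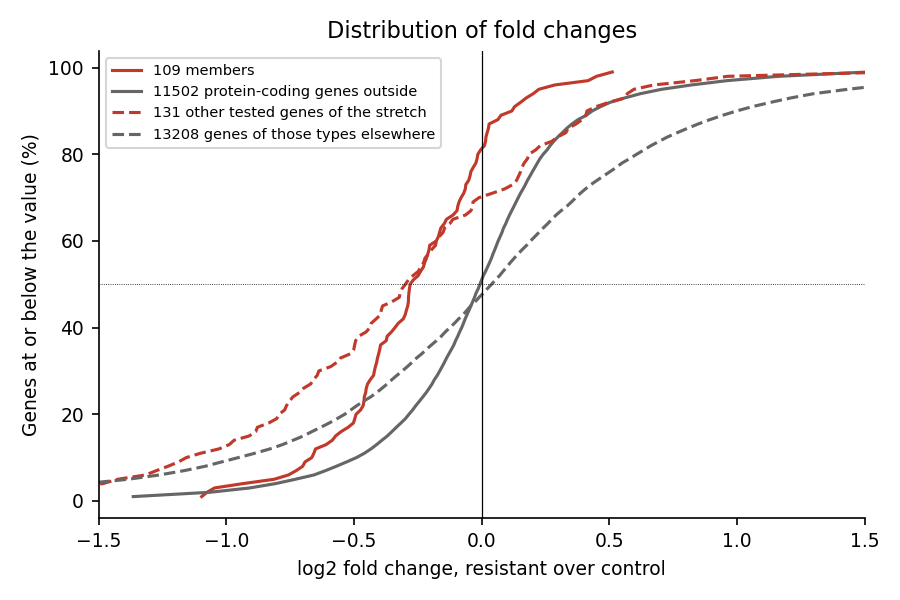
Cumulative share of genes (vertical axis, percent) at or below each log2 fold change (horizontal axis, resistant over control; the axis ends at 1.5 in size) for the members, for other tested genes of the stretch, and for the matching genes elsewhere. Both curves from the stretch cross 50% near -0.3, and both curves from elsewhere cross it near 0.

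A single member passed the test across all genes. By edgeR's quasi-likelihood test with Benjamini-Hochberg adjustment over 24961 genes, 1 of 109 members was lower and 0 were higher, against 0.513% and 0.577% of all tested genes. At an unadjusted p under 0.05, 27 members were lower and 1 was higher, beside 7.32% and 6.14% of all tested genes and 9.13% and 7.09% of the protein-coding genes outside. DESeq2 called 8 members lower and 1 higher, where it called 3.24% and 2.88% of its genes. Without the filter on low counts edgeR called 12 lower and 1 higher, against 2.14% and 2.01%. With RLE factors it called LTA4H alone, against 0.569% and 0.633%, and likewise with the counts of control replicate 1 halved, against 0.631% and 0.676%. Leaving out control replicate 1 gave 2 lower and 0 higher members (1.49% and 1.5% of all genes), and leaving out control replicate 2 gave 9 and 3 (3.84% and 4.31%). Leaving out resistant replicate 1 gave 0 and 0 (0.287% and 0.397%), as did leaving out resistant replicate 2 (0.0333% and 0.0259%). A replicate block gave 0 and 0 (0.124% and 0.132%). Nothing is read from these counts, because the stretch was chosen on this contrast.

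The gene that passed was LTA4H, which encodes leukotriene A4 hydrolase, the zinc enzyme that makes leukotriene B4 (ENSG00000111144.10, minus strand, chromosome 12, 96000753 to 96043520). It had 186 and 158 CPM in control replicates 1 and 2 and 78.4 and 85.8 CPM in resistant replicates 1 and 2, so the groups were well apart. It fell by 1.07 on the log2 scale (172 ± 19.6 to 82.1 ± 5.21 CPM, mean ± SD, n = 2 per group; SE 0.17, edgeR adjusted p = 0.0415). The call was lost without resistant replicate 1 (edgeR adjusted p = 0.141) and without resistant replicate 2 (0.189), while the log2 fold change stayed between -1.18 and -0.94 with 1 library left out. Antisense genes overlap 12.5% of its exonic bases, and counting ignored strand. The 250 bases before its RefSeq start are shown with those of 3 other members whose levels stood out, SLC25A3, TMPO and FICD.

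Each sequence is from RefSeq (GRCh38.p14), 5′ to 3′ on the gene's strand. The window of LTA4H is chr12:96035588-96035837 (minus strand), that of SLC25A3 chr12:98593436-98593685 (plus), that of TMPO chr12:98515323-98515572 (plus) and that of FICD chr12:108515027-108515276 (plus). Capitals mark a CCAAT box in SLC25A3 and TMPO, and in FICD an endoplasmic reticulum stress element, which is CCAAT, any 9 bases and then CCACG, so that it contains a CCAAT box. The window of FICD holds 3 CCAAT matches in all on either strand, and those outside the element are left in lower case. The start that RefSeq gives for LTA4H lies inside the longer gene of the counting annotation.
LTA4H: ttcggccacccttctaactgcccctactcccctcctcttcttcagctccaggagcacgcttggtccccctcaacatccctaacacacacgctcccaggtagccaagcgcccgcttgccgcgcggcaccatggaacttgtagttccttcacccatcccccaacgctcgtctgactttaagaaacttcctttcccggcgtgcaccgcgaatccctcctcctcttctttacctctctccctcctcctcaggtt
SLC25A3: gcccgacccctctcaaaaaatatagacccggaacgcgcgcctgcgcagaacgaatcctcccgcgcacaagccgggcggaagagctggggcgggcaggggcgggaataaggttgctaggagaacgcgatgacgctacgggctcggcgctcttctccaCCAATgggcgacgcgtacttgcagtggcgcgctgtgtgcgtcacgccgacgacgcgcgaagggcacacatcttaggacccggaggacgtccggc
TMPO: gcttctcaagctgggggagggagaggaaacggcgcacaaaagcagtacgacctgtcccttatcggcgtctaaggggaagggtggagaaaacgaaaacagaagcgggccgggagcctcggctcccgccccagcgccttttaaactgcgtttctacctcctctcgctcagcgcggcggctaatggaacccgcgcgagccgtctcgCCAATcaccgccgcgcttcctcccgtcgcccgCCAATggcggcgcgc
FICD: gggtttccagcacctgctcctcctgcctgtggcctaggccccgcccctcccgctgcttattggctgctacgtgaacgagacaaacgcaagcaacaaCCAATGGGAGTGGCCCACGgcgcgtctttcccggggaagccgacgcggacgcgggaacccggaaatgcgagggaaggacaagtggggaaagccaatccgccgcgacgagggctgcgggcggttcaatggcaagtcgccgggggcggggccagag

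RefSeq promoter windows were at hand for 94 of 109 members (132 windows, as some genes have several starts). On either strand, CCAAT was present in 34.8% of member windows and in 32% of all 35116 windows. The stress element was present in the window of FICD and in no other member window, and in 26 of all windows (0.074%). TATAAA was in 3.03% of member windows and 10.7% of all. Members with a CCAAT box had a median log2 fold change of -0.34 and those without it -0.28. A match describes the letters in the window and is not a bound site.

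Beside LTA4H, the members with the lowest fold changes at 10 CPM or more were GAS2L3, NT5DC3, TMEM19, TMPO, NAV3, SSH1, E2F7, IKBIP and PAWR. All 10, LTA4H included, had both resistant libraries below both controls and a negative sign in each of the 9 alternative analyses, and the 9 genes other than LTA4H missed the edgeR threshold. GAS2L3, which encodes a linker of actin and microtubules used in cytokinesis, had 59.4 and 42.9 CPM in controls and 13.2 and 33.2 CPM in resistant cells. Resistant replicate 2 lay closer to control replicate 2 than to resistant replicate 1, and the log2 fold change of -1.14 ± 0.39 (edgeR adjusted p = 0.252) ranged from -1.95 to -0.62 with 1 library left out. NT5DC3, a gene of the nucleotidase domain family, had 67.8 and 34.4 CPM in controls and 21.5 and 26.2 CPM in resistant cells (log2 -1.10, edgeR adjusted p = 0.157). Control replicate 1 carried much of that difference, since the value was -0.53 without it. The membrane protein gene TMEM19 had 25.3 and 16.2 CPM in controls and 10.1 and 9.63 CPM in resistant cells.

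TMPO encodes lamina-associated polypeptide isoforms of the inner nuclear envelope and nucleoplasm. It had 188 and 118 CPM in controls and 85.6 and 84.5 CPM in resistant cells, and the log2 fold change of -0.84 shrank to -0.47 without control replicate 1. The resistant libraries were nearly equal while the controls were not. E2F7, an atypical E2F repressor of cell cycle genes, was tighter: 74.8 and 79.6 CPM in controls against 44.8 and 49.6 CPM in resistant cells (log2 -0.71 ± 0.16, edgeR adjusted p = 0.0956; DESeq2 adjusted p = 0.0117). PAWR, a pro-apoptotic regulator gene, had 149 and 157 CPM in controls and 77.9 and 111 CPM in resistant cells. SSH1, a cofilin phosphatase gene, had 237 and 331 CPM in controls and 133 and 206 CPM in resistant cells. In both genes resistant replicate 1 was the lowest library.

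SLC25A3 encodes the mitochondrial phosphate carrier. Its levels were 613 and 611 CPM in controls and 391 and 384 CPM in resistant cells, a 1.58-fold lower level (log2 -0.66 ± 0.17, edgeR adjusted p = 0.123; DESeq2 adjusted p = 0.0119). Libraries of a group were nearly equal, and with 1 library left out the value stayed between -0.67 and -0.64. SLC25A3 lies between TMPO and IKBIP, whose log2 fold changes were -0.84 and -0.70.

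The 6 highest members at 10 CPM or more were FICD, ALKBH2, ISCU, NOPCHAP1, SYT1 and NUDT4, and none of the 6 passed in edgeR. FICD encodes the enzyme that adds AMP to the endoplasmic reticulum chaperone BiP and removes it. It had 5.03 and 7.67 CPM in controls and 17.9 and 11.3 CPM in resistant cells, 2.30-fold higher (log2 1.20 ± 0.31, edgeR adjusted p = 0.132; DESeq2 adjusted p = 0.00679). The groups did not overlap, and the value ranged from 0.84 to 1.54 with 1 library left out. The DNA dealkylase gene ALKBH2 had 38.9 and 51 CPM in controls and 53.1 and 69.7 CPM in resistant cells, and the iron-sulfur scaffold gene ISCU 63.4 and 73.2 against 80.4 and 106 CPM. Both were higher in each resistant library than in each control. SYT1, a synaptic vesicle calcium sensor gene, had 16.4 and 48.7 CPM in controls and 31.7 and 44.6 CPM in resistant cells, so its sign depended on which control was used (log2 1.22 without control replicate 2 and -0.35 without control replicate 1). NUDT4, a phosphatase gene for diphosphoinositol phosphates, has a near-identical copy elsewhere and overlaps UBE2N over 24.5% of its exonic bases, so its count is uncertain.

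**Figure D2:**
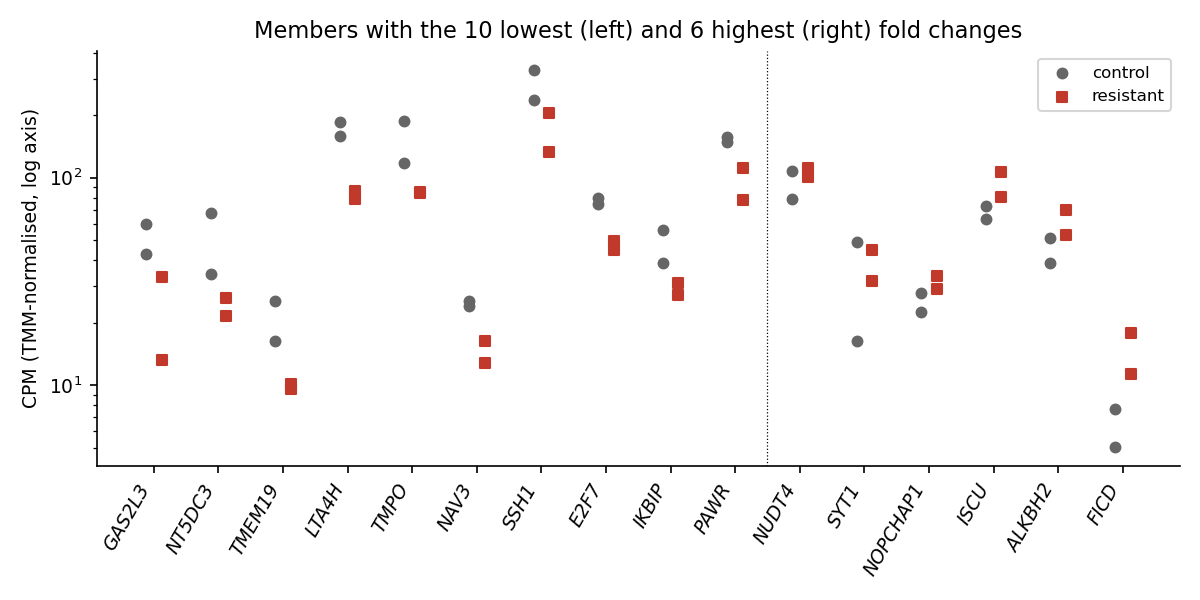
Level in each library (CPM, log axis) of the members with the 10 lowest and 6 highest fold changes at a mean of 10 CPM or more; each symbol is 1 library. In the 10 on the left both resistant libraries lie below both controls, and on the right FICD, ISCU, ALKBH2 and NOPCHAP1 show the reverse order.

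Low values ran through the length of the stretch but not evenly. The member median was -0.31 from 70 to 80 Mb (20 of 23 negative), -0.21 from 80 to 90 Mb (9 of 11), -0.40 from 90 to 100 Mb (20 of 23) and -0.19 from 100 to 110 Mb (39 of 52). In bins of 5 Mb it was lowest from 95 to 100 Mb, where 13 of 13 members were negative with a median of -0.47. It was nearest 0 from 90 to 95 Mb (-0.08) and from 105 to 110 Mb (-0.09, 22 of 32 negative). The longest run of neighbouring members with a negative sign held 17 genes, from CEP83 to BLTP3B over 5.72 Mb, and the next held 13, from SCYL2 to TDG. ACTR6, at 0.02, was the member between these runs. The runs are of members only: HSP90B1, an endoplasmic reticulum chaperone gene left out by name, lies inside the second and stood at 0.44.

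Both flanks lay near 0. The 30 expressed protein-coding genes from 60 to 70 Mb had a median of -0.04 (17 negative) and the 51 genes from 110 to 120 Mb one of 0.02 (24 negative). Elsewhere on chromosome 12, the medians of 10 bins of 10 Mb lay between -0.12 and 0.06. In bins of 5 Mb, the 16 others with at least 10 genes lay between -0.24 and 0.12, and the lowest of them, from 40 to 45 Mb (10 genes), was below the member median of 4 of the 8 bins inside. Over the genome, 17 of 285 other bins of 10 Mb with at least 10 genes had a median of -0.2 or lower, 9 of them on chromosome 3. At the 70 Mb end the first members CNOT2 (log2 -0.06) and PTPRB (0.22) followed RAB3IP (-0.05) and CCT2 (-0.17) outside. At the 110 Mb end the members GIT2 (-0.16) and ANKRD13A (-0.65) were followed by C12orf76 (0.19), IFT81 (-0.48) and ATP2A2 (0.29). At the CPM minimum the lowest member was KITLG (3.40 CPM, log2 -0.30), and the genes just under it were CAPS2 (2.86 CPM, -0.60) and LRRIQ1 (2.72 CPM, -0.39).

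**Figure D3:**
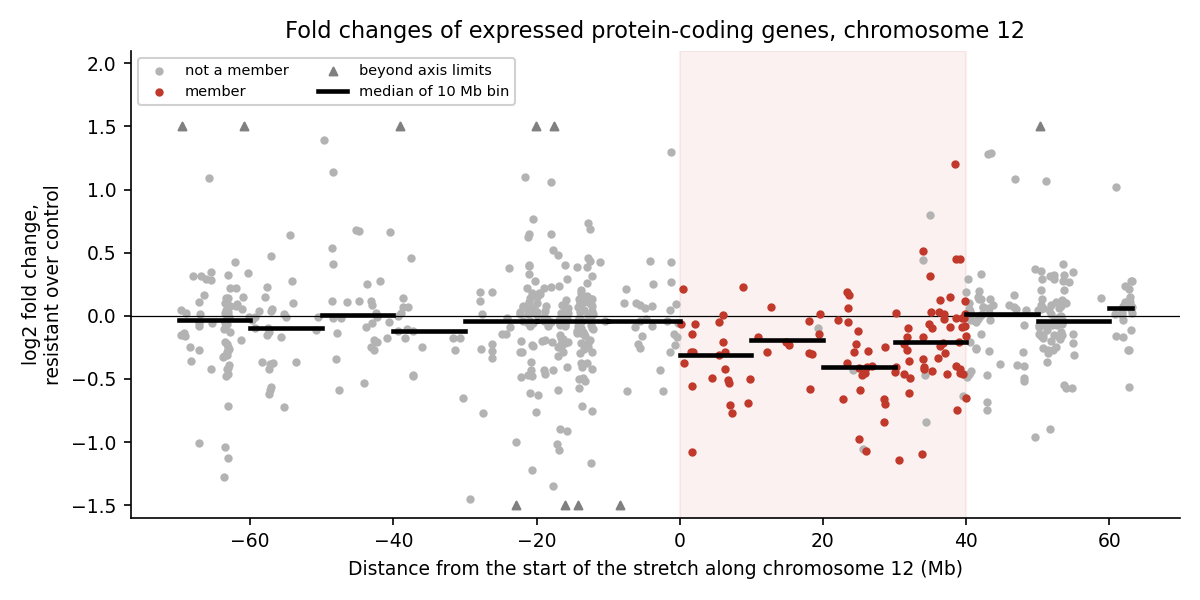
Log2 fold change (vertical axis, resistant over control) of each protein-coding gene of 3 CPM or more on chromosome 12 against its distance in Mb from the start of the stretch; lines are medians of 10 Mb bins and triangles mark genes beyond 1.5 in size. The 4 bins inside the shaded stretch lie at -0.19 or lower, and the other bins lie between -0.12 and 0.06.

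The order of libraries matched the groups for members. Relative to each gene's mean over the 4 libraries, the median log2 level of members was 0.20 in control replicate 1 and 0.07 in control replicate 2, and -0.16 and -0.08 in resistant replicates 1 and 2. For genes outside the stretch the corresponding medians were 0.03, -0.02, -0.04 and 0.03. Control replicate 2 stood -0.10 below control replicate 1 in the median member, and resistant replicate 2 stood 0.09 above resistant replicate 1. Each of the 4 pairings of a resistant with a control library gave a larger median difference, from -0.32 to -0.23. Because the stretch was chosen on this contrast in the same libraries, that order was built into the choice and carries no test. Control replicate 1 was the highest of the 4 libraries in 63 members (57.8%), and resistant replicate 1 the lowest in 49 (44.95%). These were also the most frequent outside the stretch, at 37.1% and 30.9%. The summed level of the 109 members was 8128 and 8322 CPM in controls and 6596 and 7073 CPM in resistant cells.

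**Figure D4:**
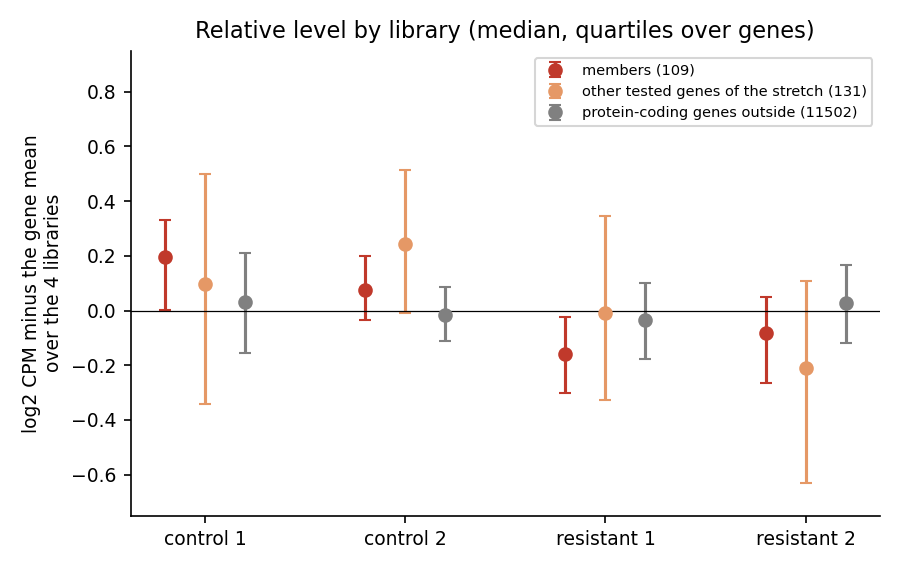
Log2 CPM minus the gene's mean over the 4 libraries (vertical axis) in each library; points are medians over genes and bars the quartiles. Member medians lie above 0 in both controls (0.20, 0.07) and under 0 in both resistant libraries (-0.16, -0.08), while genes outside stay within 0.04 of 0.

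The stretch also holds 131 tested genes that the choice of members did not use, being under 3 CPM or not protein coding. Their median log2 fold change was -0.30, and 92 of 131 (70.2%) were negative, where genes of those types elsewhere had a median of 0.04 and 47.6% negative. The 101 genes that are not protein coding had a median of -0.31, and the 30 low protein-coding genes one of -0.24. Along the stretch their profile differed from that of members. The median of the 131 was -0.40 from 70 to 80 Mb and -0.25 from 80 to 90 Mb. It was nearest 0 from 90 to 100 Mb (-0.12, 18 of 33 negative), where members were lowest (-0.40). From 100 to 110 Mb it was lowest (-0.42, 32 of 40 negative), where members were mildest (-0.19). None of the 131 passed in edgeR (11 were lower and 1 was higher at an unadjusted p under 0.05, where those types elsewhere had 5.58% lower and 5.41% higher). Counting ignored strand and 54 of these genes overlap a member's body (median -0.22), so the 77 that lie clear of every member's body were also taken alone, and their median was -0.39 with 53 negative. At 1 CPM or more, 14 of 18 such genes were negative (median -0.37). Overlap with the genes left out by name was not removed. RPL18AP3 (-0.15) and EID3 (0.41), for example, count as clear but lie inside TXNRD1, so some reads from expressed genes may remain. Relative to each gene's mean, the median level of all 131 genes was 0.10 and 0.24 in controls and -0.01 and -0.21 in resistant cells. The 4 pairings of a resistant with a control library gave median differences from -0.47 to -0.18 in these genes. Differences within groups were not all smaller: resistant replicate 2 minus resistant replicate 1 was -0.17, and control replicate 2 minus control replicate 1 was 0.14. These genes come from the same 4 libraries and the same DNA, so they are a second readout of the stretch and not a replicate of the comparison.

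TMPO-AS1, a long noncoding RNA that starts beside TMPO on the other strand, had 10.2 and 5.47 CPM in controls and 2.79 and 1.89 CPM in resistant cells. The pseudogene transcript MKRN9P had 13.1 and 8.09 against 4.14 and 3.83 CPM, and TRHDE-AS1 35.0 and 50.03 against 28.3 and 25.9 CPM. In each of these the groups were apart, with log2 fold changes of -1.75, -1.41 and -0.65. SOCS2-AS1 had 6.40 and 8.59 CPM in controls and 9.68 and 11.6 CPM in resistant cells. Of the 32 genes of this kind at 1 CPM or more, it was the 1 with both resistant libraries above both controls, and 15 had them below. Among 3923 genes of those types elsewhere at that level, 24.2% had them above and 22.1% below. These 4 were named after their values were seen. TMPO-AS1, TRHDE-AS1 and SOCS2-AS1 overlap the body of a member, and reads of either strand cannot be told apart.

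By role, 12 of 13 members of the cell cycle, spindle and nuclear envelope list were negative, with a median of -0.40, and 0 were called. Besides GAS2L3, TMPO, SSH1 and E2F7 these included NEDD1, which recruits gamma-tubulin (-0.40), NUP37 of the nuclear pore (-0.36), PARPBP, a regulator of homologous recombination (-0.49) and the kinase gene CDK17 (-0.28). Outside this list 76 of 96 members were negative, with a median of -0.23. Low values in cell cycle genes were not particular to the stretch. Elsewhere on chromosome 12, several such genes lay below the list's median of -0.40. Examples are TROAP (-1.22), CDCA3 (-1.13), NCAPD2 (-1.04), FOXM1 (-1.01), CIT (-0.96), ESPL1 (-0.89) and RACGAP1 (-0.76). Others were nearer 0, such as RFC5 (-0.28), POLE (-0.27), KNTC1 (-0.25), CDK4 (-0.10) and CDK2 (0.13). Cell cycle genes elsewhere were not set beside this list as a whole. Vesicle traffic members were negative in 13 of 14 (median -0.28). Among them EEA1, an early endosome tether gene, had 39.4 and 33.2 CPM in controls and 25.6 and 20.5 CPM in resistant cells (log2 -0.66, edgeR adjusted p = 0.185), and PLEKHG7 overlaps 17.9% of its exonic bases. WASHC4 was at 0.03. All 9 RNA processing members were negative, but their median was only -0.09, led by the ribosome assembly gene UTP20 (-0.46) and SNRPF (-0.45).

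Among 14 members for transcription 11 were negative (median -0.29). NAP1L1, a histone chaperone gene, had 1120 and 1036 CPM in controls and 926 and 946 CPM in resistant cells. ATXN7L3B, an SAGA-related gene, had 137 and 139 CPM in controls against 99.1 and 97.0 CPM in resistant cells. In both the groups were apart and neither passed. Of 8 cell death and stress members 5 were negative (median -0.07). PHLDA1, a target of growth factor signalling, had 643 and 903 CPM in controls and 746 and 805 CPM in resistant cells, with full overlap of the groups. BTG1, an antiproliferative gene, had 172 and 326 against 222 and 264 CPM, again with overlap. Of 14 metabolism and transport members 9 were negative and 1, LTA4H, was called. In the endoplasmic reticulum list 4 of 7 were negative, and CKAP4 stood at 0.03. Signalling and cytoskeleton members were negative in 11 of 13 (median -0.33), ubiquitin and turnover members in 6 of 7 (-0.20), DNA repair members in 5 of 6 (-0.36) and cilium and centrosome members in 6 of 7 (-0.29). A gene may stand in several lists, and the 17 members in no list had a median of -0.22.

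In KITLG, SOCS2, ATP2B1 and UNG the groups overlapped. KITLG had 5.37 and 2.15 CPM in controls and 3.49 and 2.60 CPM in resistant cells, and both resistant values lay between the controls. SOCS2, a feedback inhibitor of cytokine signalling, had 43.7 and 42.6 against 40.9 and 49.3 CPM. ATP2B1, a plasma membrane calcium pump gene, had 28.8 and 28.1 against 30.5 and 26.9 CPM. UNG, with 102 and 59.6 against 69.7 and 48.0 CPM, stood at -0.45 (edgeR adjusted p = 0.568), and at -0.02 without control replicate 1. In APAF1 and CRY1, by contrast, the groups did not overlap, but neither passed. APAF1 had 28.1 and 28.0 CPM in controls and 26.6 and 20.6 CPM in resistant cells (log2 -0.25, edgeR adjusted p = 0.663), and CRY1 had 18.1 and 16.9 against 12.1 and 16.4 CPM (log2 -0.29, edgeR adjusted p = 0.642).

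Members were then set beside partners of the same complex or enzyme family that lie elsewhere. In 11 such groups 10 of 13 members were negative, with a median of -0.34, against 36 of 70 partners and a median of -0.02. The member value, or the median of 2 members, was below the partner median in 11 of 11 groups and below every partner in 5. Taken singly, WASHC4 (0.03) was above its partner median (-0.23). The stretch was chosen for low values in this contrast and the partners were not, so this order was built into the choice and nothing is read from it. SNRPF, a core Sm protein gene of the spliceosome, had a log2 fold change of -0.45 ± 0.19, while its 6 partners lay between -0.15 and 0.05. NFYB of the CCAAT-binding factor NF-Y was at -0.42 ± 0.19, with NFYC at -0.18 and NFYA at 0.30. The clock gene CRY1 was at -0.29 ± 0.22 and its 7 partners between -0.08 and 1.07. PER1, the median clock partner, was high in resistant replicate 2 only (94.9 CPM, against 49.5 to 50.9 CPM in the other libraries). With 1 library left out PER1 ranged from -0.0058 to 0.93 and NR1D1 from -0.018 to 0.99. BMAL1, CRY2, PER2 and PER3 stayed positive, and CLOCK changed sign. NUP37 was at -0.36 ± 0.20, close to NUP133 (-0.32) and NUP85 (-0.30). In other groups partners were as low: NEIL3 (-1.06) and OGG1 (-0.50) were below UNG and TDG, and TUBGCP3 (-0.42) below NEDD1. No partner passed in edgeR (0 of 70). Of the calcium pump partners, ATP2B4 stood at 0.61, and ATP2B2 had a mean of only 0.153 CPM. The standard errors of these members ranged from 0.16 to 0.28, and members were not tested against partners.

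**Figure D5:**
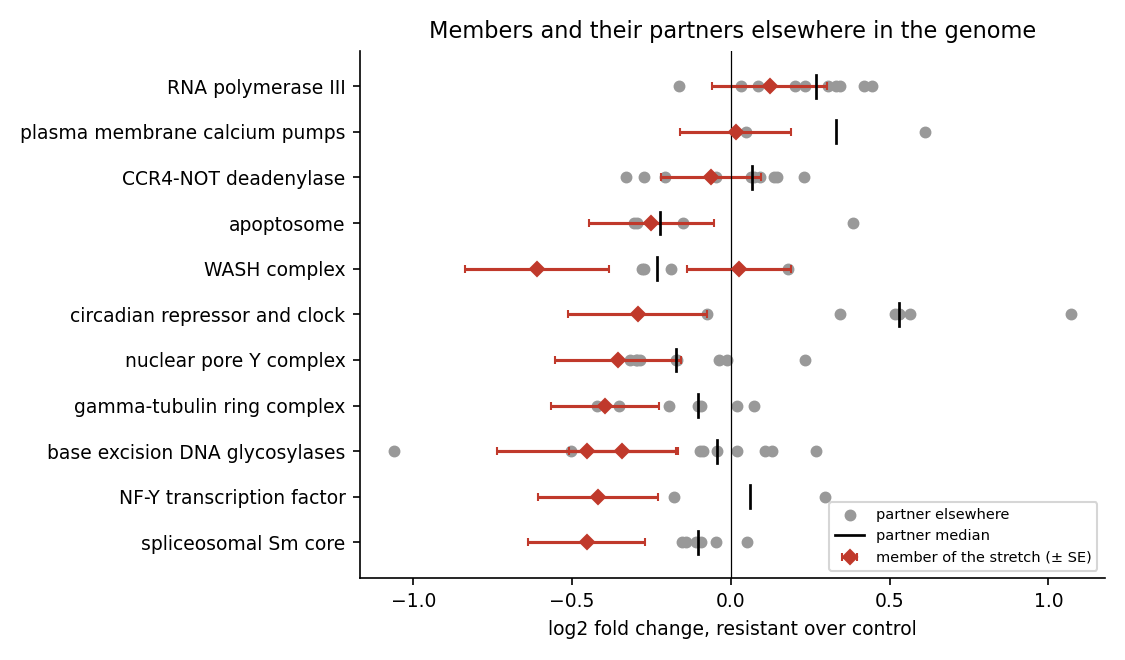
Log2 fold change (horizontal axis, resistant over control) of members (diamonds, bars ± SE of the edgeR fit) and of partner genes elsewhere (grey points, with their median as a black line) for 11 complexes or families. The member, or the median of the members, lies left of the partner median in each row. In the clock row CRY1 is at -0.29 and the partner median at 0.53. That median is the value of PER1, which was high in resistant replicate 2 only.

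In 8 places pairs of members on opposite strands start within 1000 bases of each other. Both members of the pair were negative in 7 of them. As 88 of all 109 members (80.7%) were negative, most pairs would be so in any arrangement, and nothing is read from that count. FGD6 (-0.98) and VEZT (-0.59), an adherens junction gene, start 263 bases apart. IKBIP (-0.70) and APAF1 (-0.25) start 176 bases apart, and NUP37 and PARPBP 62 bases apart (-0.36 and -0.49). The exception was GLT8D2 (0.52) beside HCFC2 (-0.40). The size of the difference within a pair had a median of 0.31. Standard errors of the single genes ran from 0.16 (KCTD10) to 0.27 (GLT8D2), so differences of that size may be error alone, and they were not tested.

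Members also differed from other genes in base composition. The longest transcript of members had a median GC content of 41.2%, against 48.1% outside. Members under 40% GC were negative in 42 of 46 (median -0.30), where genes of that GC outside had a median of -0.03. Members of 45% GC or more were negative in 21 of 30 (-0.10, against 0.00 outside). After the genome-wide trend over GC was subtracted the member median was -0.24, with 84 of 109 negative. By level, the median was -0.26 in the lowest, -0.30 in the middle and -0.16 in the highest of 3 equal-sized groups of members. More than 10% of exonic bases lie in another gene for 14 of 109 members, 13 of them antisense. A smaller share of cells carrying a lower level and a lower level in all cells cannot be told apart in these bulk libraries.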

How the data were processed

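PolyA-selected, strand-specific, paired-end RNA-seq libraries of A375 cells were made, per the labels' protocols. Values were deposited as unnormalised gene counts. Per the file headers, the authors ran featureCounts 2.0.0 with the GENCODE release 42 annotation and no strand or pair option on duplicate-marked alignments. Without those options strand is ignored and mates are counted singly. STAR, DESeq2 and GRCh38 are named in the submitters' processing notes. A further deposited table of log fold changes names no comparison and was not used.

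Gene type was taken from GENCODE release 29. Counts were filtered with filterByExpr, scaled with TMM and fitted by group in edgeR 4.0.16 (quasi-likelihood test, R 4.3.3) with Benjamini-Hochberg adjustment over 24961 genes, threshold 0.05. The procedure was tested on simulated data. CPM are TMM-normalised, except in the CPM minimum and the marker sums, which use library totals. A count of 3 equals 0.0344 to 0.0441 CPM (counting error only).

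The members and lists were chosen with earlier results of these data known. Named are called members, the 10 lowest and 6 highest at 10 CPM or more, the 2 most counted of each list, complex members, edge genes and 16 fixed genes, as far as the text needs them. Alternatives were DESeq2 1.42.0, RLE factors, no filter, control replicate 1 halved, a replicate block, each library left out, other CPM minimums, the left-out genes kept, and trends over length and GC (lowess span 0.3).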

Additional observations from a re-analysis of the deposited data

How the results depend on the processing

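The member median log2 fold change stayed negative in each alternative run, from -0.32 to -0.22, and so did that of the 131 other genes of the stretch (-0.41 to -0.25). The number of negative members was 88 with all libraries and 78 to 95 with 1 library left out. Counts of called members did not hold. Members called lower in edgeR numbered 1, and 0 to 9 with 1 library left out (0 without resistant replicate 1 or 2, 2 without control replicate 1, 9 without control replicate 2), 8 with DESeq2 and 12 with no filter on low counts. Members called higher numbered 0, and 0 to 3 with 1 library left out, 1 with DESeq2 and 1 with no filter. Numbers of called genes over the whole genome moved too, for example from 0.513% to 3.84% lower without control replicate 2 and 2.14% with no filter; the cause was not tested. With a replicate block the edgeR test called 0 members lower (LTA4H adjusted p = 0.092) and 0.124% of all genes. Same-numbered libraries did not deviate together (r = -0.0064 across 10089 genes, which are not independent), so the numbers were not taken as pairs and the lost call is not read as a weaker effect. In 66 members the sign was negative in each of the 9 refits. The subtraction of trends and the minimums of 1 and 10 CPM kept the median between -0.28 and -0.24. The set outside the cell cycle list was added after seeing the data. One by one, 81 of 109 members did not reach an unadjusted p under 0.05 in edgeR, so the shift is described over members and not for single genes. In simulated counts the adjusted edgeR test called 0 of 50 genes with a true 1.3-fold change. Every simulated gene was given the same spread between libraries (coefficient of variation 25.5%). Members have spreads of their own, which may be smaller, so the rate of calls for members was not measured. A missing call in a single member is not read as a lack of the shift.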
